A study of Mus musculus with 15 samples.

Results

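Pparg, Cd36, Mogat1 and G0s2 are 4 genes of hepatic lipid uptake and storage, from the 2545 genes of a liver RNA-seq table of 15 mice. They were chosen by name for their roles, with earlier results of these data known. Pparg encodes the nuclear receptor PPAR-gamma, Cd36 a fatty acid transporter of the plasma membrane, Mogat1 an enzyme that acylates monoacylglycerol to diacylglycerol, and G0s2 a small inhibitor of the lipase ATGL. All 4 were found in the table, and each had a value in every mouse.

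The study used female C57BL/6J mice and asked how estrogens and a selective estrogen receptor modulator act on the liver after loss of the ovaries. The mice received a diet with 45% of its calories from fat from 8 weeks of age, were ovariectomized at 10 weeks, and were then treated for 6 weeks, with 3 mice per group. The Veh group received vehicle only, the E2 group 17β-estradiol at 5 μg/kg/day, the CE group conjugated estrogens at 2.5 mg/kg/day and the BZA group bazedoxifene, the selective modulator, at 3 mg/kg/day. The CE+BZA group received conjugated estrogens and bazedoxifene together. The paper states that E2 was given as a 0.72 mg pellet with 60-day release, and that conjugated estrogens were loaded into an osmotic minipump. E2 and CE therefore differed in delivery as well as in agent, and these cannot be told apart here. All 15 mice, Veh included, were ovariectomized and fed the high-fat diet, so no comparison with intact or lean mice is made here. Each sample was the liver of 1 mouse.

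PPAR-gamma binds DNA as a heterodimer with RXR and is activated by fatty acids and their derivatives. It is best known as the regulator of fat cell differentiation, is low in healthy liver, and is raised in mouse models of fatty liver. CD36 brings fatty acids into the cell. The MOGAT1 enzyme feeds the monoacylglycerol route to triglyceride, and G0S2 slows release of fatty acids from the lipid droplet by holding back ATGL. Cd36, Mogat1 and G0s2 are all known targets of PPAR-gamma.

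Sequence upstream of the starts of the 4 genes is shown because they are often discussed as genes under shared control. Each window runs from 250 to 71 bases before a RefSeq transcription start of GRCm38.p6, is written in the direction of the gene, and has matches to the searched letters in capitals. The Pparg windows belong to its RefSeq starts 2 and 3, at chr6:115362099-115362278 and chr6:115421816-115421995 on the plus strand. The Cd36 window is at chr5:17835967-17836146 on the minus strand, the Mogat1 window at chr1:78510810-78510989 on the plus strand and the G0s2 window at chr1:193273259-193273438 on the minus strand.
Pparg start 2: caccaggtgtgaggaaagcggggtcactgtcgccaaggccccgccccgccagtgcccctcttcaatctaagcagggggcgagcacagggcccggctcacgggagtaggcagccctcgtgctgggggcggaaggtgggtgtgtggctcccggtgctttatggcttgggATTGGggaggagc
Pparg start 3: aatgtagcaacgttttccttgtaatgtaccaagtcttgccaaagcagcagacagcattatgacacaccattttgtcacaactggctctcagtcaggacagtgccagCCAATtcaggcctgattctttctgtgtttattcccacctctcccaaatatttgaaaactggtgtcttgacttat
Cd36: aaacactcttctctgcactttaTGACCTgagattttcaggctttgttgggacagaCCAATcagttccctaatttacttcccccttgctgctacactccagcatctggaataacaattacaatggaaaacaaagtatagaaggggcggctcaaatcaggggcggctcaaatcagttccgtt
Mogat1: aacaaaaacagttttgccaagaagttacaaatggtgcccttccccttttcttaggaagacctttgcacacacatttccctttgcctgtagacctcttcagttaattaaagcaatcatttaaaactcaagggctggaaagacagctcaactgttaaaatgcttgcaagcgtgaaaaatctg
G0s2: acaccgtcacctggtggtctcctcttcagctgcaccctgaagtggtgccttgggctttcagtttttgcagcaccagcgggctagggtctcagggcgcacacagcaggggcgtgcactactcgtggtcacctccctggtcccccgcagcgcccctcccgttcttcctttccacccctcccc
The motifs searched on both strands were the direct repeat bound by PPAR and RXR (AGGTCA repeated after 1 base of any kind), the estrogen receptor palindrome (GGTCA and its reverse complement, 3 bases apart), the lone element AGGTCA, the box CCAAT and the box TATAAA. The lone element shares letters with both longer motifs. Over windows of the same length at 32851 RefSeq promoters, 0.0213% held the direct repeat, 0.0396% the palindrome, 10.2% AGGTCA, 25% CCAAT and 8.37% TATAAA. Neither of the longer motifs was in the 5 windows. In Cd36, AGGTCA lay 228 to 223 bases before the start, in reverse, and CCAAT 195 to 191 bases before it. CCAAT lay 83 to 79 bases before Pparg start 2, in reverse, and 144 to 140 bases before start 3. The Mogat1 and G0s2 windows held none of the 5 motifs. A match to a few letters is a description of the sequence only, and the absence of a match covers these 180 bases only.

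In the GENCODE annotation of GRCm38, Pparg spans bases 115360951 to 115490399 of chromosome 6 and has coding forms of 475 and 505 residues, the longer from start 3. Cd36 spans 17781690 to 17888801 on chromosome 5. Some Cd36 forms start at 17849729 and 17888747, upstream of the window shown, and sequence before these starts was not searched here. Mogat1 spans 78510991 to 78538173 and G0s2 193272161 to 193273217, both on chromosome 1. A Mogat1 form starts at 78511867, downstream of the window shown. The table gives 1 value per gene, so the short and long forms of Pparg cannot be told apart.

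Every value below is a deposited log2 value from which the median of the 15 mice was subtracted gene by gene, so that 0 is the middle mouse and levels cannot be compared between genes. Differences from Veh are log2 fold changes. The test was limma, with p-values adjusted by Benjamini-Hochberg over all 2545 genes (FDR), and calling required an FDR under 0.05 together with a fold change above 2. Each of the 2545 genes listed differed from Veh by more than 1 log2 unit in the mean of at least 1 treatment, so the presence of such a difference in the 4 genes is no finding. In bulk liver, fewer cells of a type and less RNA per cell cannot be told apart. The depth of the libraries is not in the table. None of the 4 genes had more than 1 mouse at its lowest value. The mouse BZA 3 stood apart from the others in fat and pancreas genes, and its values are given with the results they touch.

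Pparg was highest in the 3 Veh mice. Its values were 1.18, 0.77 and 0.61 in Veh mice 7, 1 and 4. In E2 mice 4, 3 and 5 they were −0.55, −0.22 and −0.58. The E2 values were closely grouped and all below 0. In CE mice 7, 6 and 3 Pparg was at 0.03, 0.25 and −0.12, in BZA mice 3, 1 and 4 at 0.17, 0.00 and −0.57, and in CE+BZA mice 1, 2 and 3 at −0.70, 0.16 and −0.00. The lowest Veh mouse was 0.36 above the highest treated mouse, which was CE mouse 6, so none of the 4 treated groups overlapped Veh.

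Pparg averaged 0.85 ± 0.29 over the Veh mice, −0.45 ± 0.20 over E2, 0.05 ± 0.19 over CE, −0.13 ± 0.39 over BZA and −0.18 ± 0.46 over CE+BZA mice (mean ± SD, n = 3 each). E2 had the largest difference from Veh, at −1.30 on the log2 scale (95% confidence interval −2.24 to −0.37, FDR 0.228 by limma), or 40.5% of the Veh level. The log2 fold changes were −0.80 in CE (FDR 0.305), −0.99 in BZA (FDR 0.297) and −1.03 in CE+BZA (FDR 0.224 by limma). The receptor gene therefore passed the threshold in none of the 4 comparisons, and the interval for CE, −1.73 to 0.13, included 0.

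Cd36, the uptake gene, was likewise highest in Veh, but with a wide spread there. It was at 1.65, 1.06 and 0.55 in Veh mice 7, 1 and 4. In E2 mice 4, 3 and 5 it was at 0.00, −0.57 and 0.04. The CE mice 7, 6 and 3 were nearly equal, at −0.01, −0.01 and 0.18. BZA mice 3, 1 and 4 were at −0.25, 0.38 and 0.49, and CE+BZA mice 1, 2 and 3 at −0.68, −0.05 and −0.77. The groups did not overlap Veh, although BZA mouse 4 was only 0.07 below Veh mouse 4.

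Cd36 averaged 1.09 ± 0.55 over the Veh mice, −0.18 ± 0.34 over E2, 0.05 ± 0.11 over CE, 0.20 ± 0.40 over BZA and −0.50 ± 0.39 over CE+BZA mice (mean ± SD, n = 3 each). The combination had the lowest mean, at 33.2% of the Veh level, with a log2 fold change of −1.59 (95% confidence interval −2.56 to −0.62, FDR 0.126 by limma). The log2 fold changes in E2, CE and BZA were −1.27, −1.03 and −0.88, with FDR of 0.252, 0.258 and 0.309 by limma. Cd36 was called in none of the 4 comparisons.

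Mogat1 had the widest separation between Veh and the treated mice of the 4 genes. In Veh mice 7, 1 and 4 it was at 2.25, 2.31 and 2.04. E2 mice 4, 3 and 5 were at 0.34, −0.98 and 0.00, and CE mice 7, 6 and 3 at 0.18, −1.11 and −0.75. The Veh mice were closely grouped, whereas mice within E2 and CE differed from each other by more than 1 on the log2 scale. BZA mice 3, 1 and 4 had −0.19, 0.62 and −0.37, and CE+BZA mice 1, 2 and 3 had 0.03, −0.23 and −0.32. The highest treated mouse, BZA mouse 1, was 1.42 below the lowest Veh mouse.

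Mogat1 averaged 2.20 ± 0.14 over the Veh mice, −0.21 ± 0.69 over E2, −0.56 ± 0.66 over CE, 0.02 ± 0.53 over BZA and −0.17 ± 0.18 over CE+BZA mice (mean ± SD, n = 3 each). Mogat1 fell in CE to 14.8% of the Veh level, a log2 fold change of −2.76 (95% confidence interval −3.82 to −1.70, FDR 0.0352 by limma). This call was lost when any of the 3 Veh mice was left out, and when E2 mouse 5, CE mouse 6, CE mouse 3, CE+BZA mouse 1 or CE+BZA mouse 2 was left out (FDR 0.0239 to 0.163 over the 15 fits). The log2 fold changes in E2, BZA and CE+BZA were −2.41, −2.18 and −2.37, or 18.8, 22.1 and 19.3% of the Veh level. Their FDR of 0.0593, 0.172 and 0.0573 by limma missed the threshold, and differences between the treatments were tested separately as described below.

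G0s2, the ATGL inhibitor, overlapped most between groups. Veh mice 7, 1 and 4 were at 0.00, 0.69 and 1.46. E2 mice 4, 3 and 5 were at −0.87, 0.57 and −1.13, so that E2 mouse 3 lay inside the Veh range. CE mice 7, 6 and 3 were at −0.83, −1.50 and −0.49, all below the lowest Veh mouse. BZA mice 3, 1 and 4 were at 0.36, 0.52 and 0.06, and CE+BZA mice 1, 2 and 3 at −0.18, −0.39 and 0.29. All 3 BZA mice were within the range of Veh, and only the CE group did not overlap it.

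G0s2 averaged 0.72 ± 0.73 over the Veh mice, −0.48 ± 0.92 over E2, −0.94 ± 0.51 over CE, 0.31 ± 0.23 over BZA and −0.09 ± 0.35 over CE+BZA mice (mean ± SD, n = 3 each). Its log2 fold change was −1.66 in CE (95% confidence interval −2.81 to −0.51, FDR 0.202 by limma), or 31.7% of the Veh level, and −1.19 in E2 (FDR 0.322 by limma). In BZA it was −0.41, with an interval of −1.56 to 0.75 (FDR 0.645), and in CE+BZA −0.81, with an interval of −1.96 to 0.34 (FDR 0.350 by limma). G0s2 was not called in any of the 4 comparisons.

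**Figure D1:**
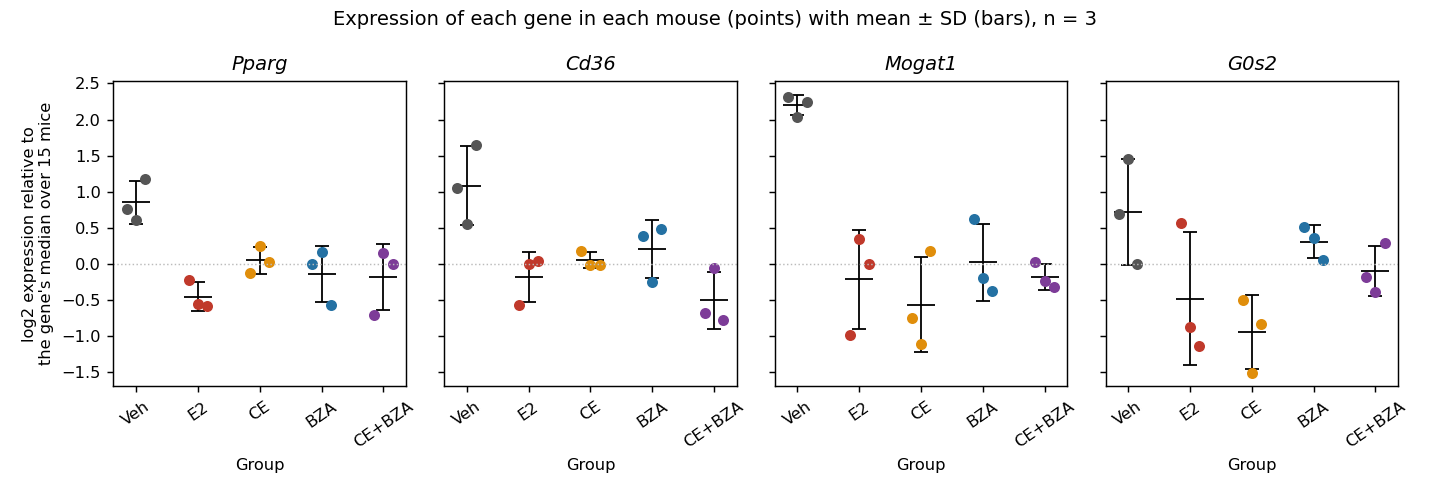
Deposited log2 expression of Pparg, Cd36, Mogat1 and G0s2 (vertical axis, median of the 15 mice at 0) in the 5 groups (horizontal axis), with 1 point per mouse and black bars for the mean ± SD of 3 mice. All 12 treated mice lie below the lowest Veh mouse for Pparg, Cd36 and Mogat1, and 7 of 12 do for G0s2.

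Read against all genes of the table, Mogat1 was the only one of the 4 genes called lower than Veh in a single treatment, and only in CE. The background of genes called lower was 0.118% for E2, 0.118% for CE, 0% for BZA and 0.0393% for CE+BZA. With a fold change above 2 and an unadjusted p under 0.05, lower than Veh were 4 of the 4 genes in E2 (8.61% of all genes), 3 with CE (8.45%), 1 with BZA (7.47%) and 3 with CE+BZA (9.55%). The gene that passed this looser threshold in BZA was Mogat1, Pparg did not pass it in CE, and G0s2 did not in CE+BZA. Groups that did not overlap, with treated mice lower, were found for 3 of the 4 genes in E2 (12.4% of all genes), 4 with CE (12.3%), 3 with BZA (11.8%) and 3 with CE+BZA (13.7%). All 4 genes had a log2 fold change below 0 in each of the 4 treatments, as did 28.9% of the table. The 4 comparisons share the same 3 Veh mice, so their directions are not independent of each other. The median log2 fold change of the 4 genes was −1.29 (E2), −1.35 (CE), −0.93 (BZA) and −1.31 (CE+BZA), beside medians of 0, 0.06, 0.11 and 0.08 over all genes.

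**Figure D2:**
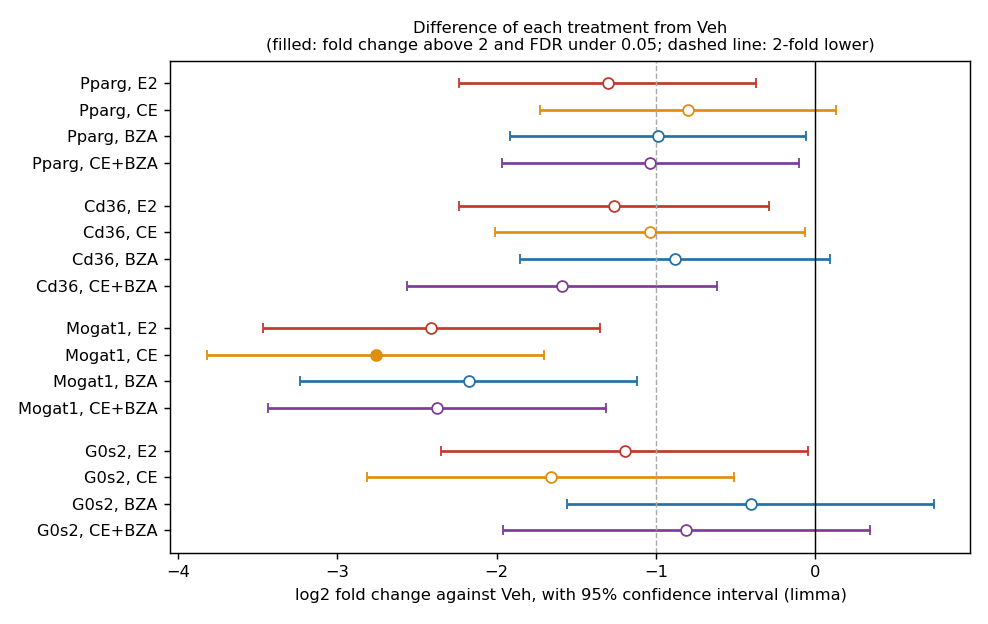
log2 fold change against Veh (horizontal axis) with its 95% confidence interval by limma for each gene and treatment (vertical axis), where a filled point marks a call. The 4 Mogat1 points lie between −2.76 and −2.18, and the one filled point is Mogat1 in CE.

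The mean of the 4 treatments was then compared with Veh, which sets 12 treated mice against 3. Mogat1 fell by 2.43 on the log2 scale, to 18.6% of the Veh level (SE 0.40, FDR 0.0170 by limma), and had the smallest p of the 2545 genes. The call was lost when any of the Veh mice was left out, with FDR of 0.0808 to 0.118 in those 3 fits. Cd36, Pparg and G0s2 had log2 fold changes of −1.19, −1.03 and −1.02 (SE 0.36, 0.35 and 0.43), with FDR of 0.156, 0.187 and 0.229 by limma, and were not called. The background was 0.196% called lower and 7.82% lower at a fold change above 2 and an unadjusted p under 0.05, which 4 of the 4 genes passed. The median log2 fold change in this comparison was −1.11 for the 4 genes and 0.29 over all genes.

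Taken singly, Pparg, Cd36 and Mogat1 were lower in 12 of 12 treated mice than in the lowest Veh mouse, which 2.32% of all genes were. The exact permutation test over every split of the 15 mice into 12 and 3 gave a two-sided p of 0.0044 for each. This is the smallest p it can give, with no adjustment over genes. The test treats the mice of the 4 treatments as a single group. The table holds only genes selected for a difference from Veh, so the permutation p-values given here are descriptions. For G0s2, 7 of 12 treated mice were below the lowest Veh mouse and the exact permutation p was 0.0484. It stayed under 0.05 when Veh mouse 7, E2 mouse 3, BZA mouse 3, BZA mouse 1 or CE+BZA mouse 3 was left out, and not when any of the other 10 mice was (exact permutation p 0.022 to 0.242 over the 15 repeats). Without Veh mouse 4 the difference of G0s2 from Veh was −0.64, against −1.02 with all mice.

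Whether the treatments differed from each other was tested for the 6 pairs of treatments, 24 differences over the 4 genes, and 0 were called. The background of genes called in either direction was 0.0393% for CE against E2, 0.275% for BZA against E2, 0.157% for CE+BZA against E2, 0.0393% for CE+BZA against CE, and 0% for BZA against CE and for CE+BZA against BZA. The difference that came closest was G0s2, which was 1.25 higher in BZA than in CE on the log2 scale (95% confidence interval 0.10 to 2.41, unadjusted p 0.0347, FDR 0.425 by limma). All 3 BZA mice were above all 3 CE mice for G0s2. It was the only one of the 24 differences with an unadjusted p under 0.05. By the limma p of BZA against CE, G0s2 ranked only 200 among the 2545 genes. The share of all genes with BZA and CE mice not overlapping is not given here, so this separation is a description. Without BZA mouse 3, the G0s2 difference was 1.23 with an interval of −0.03 to 2.49 (FDR 0.487 by limma).

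For Mogat1, the 6 differences between treatments had sizes of 0.04 to 0.58, and their confidence intervals reached from −1.41 to 1.64. For Pparg the sizes were 0.05 to 0.51, with intervals from −1.17 to 1.44. For Cd36 the largest was CE+BZA against BZA, at −0.71 (95% confidence interval −1.68 to 0.27, FDR 0.668 by limma), and it was −0.94 without BZA mouse 3 (FDR 0.567 by limma). The 18 intervals of Pparg, Cd36 and Mogat1 all included 0. All but that of Pparg in CE+BZA against BZA (−0.98 to 0.88) reached past a 2-fold difference, so these data do not show that the treatments act alike on them. The order of the treatments within each gene is therefore a description: the lowest mean was in E2 for Pparg, in CE+BZA for Cd36, and in CE for Mogat1 and G0s2.

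The combination was also set against the sum of CE and BZA alone. For Mogat1 the separate log2 differences add to −4.94, whereas CE+BZA differed from Veh by −2.37, a deviation of 2.56 (SE 0.71, 95% confidence interval 1.06 to 4.06). Its FDR was 0.215 by limma, with an unadjusted p of 0.0022, and 0.118% of all genes were called in this contrast. The deviation was 2.46 without BZA mouse 3 (FDR 0.238 by limma). The deviations of G0s2, Pparg and Cd36 were 1.26, 0.75 and 0.33, with FDR of 0.485, 0.576 and 0.812 by limma and intervals that included 0. None of the 4 genes was called, and in all 4 the measured combination was nearer to Veh than the sum. The median deviation over all genes was −0.11, and the share of all genes with a positive deviation is not given here. The same Veh mice enter both separate differences, so high Veh values by themselves make the deviation more positive. The shared direction in the 4 genes is therefore a description.

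**Figure D3:**
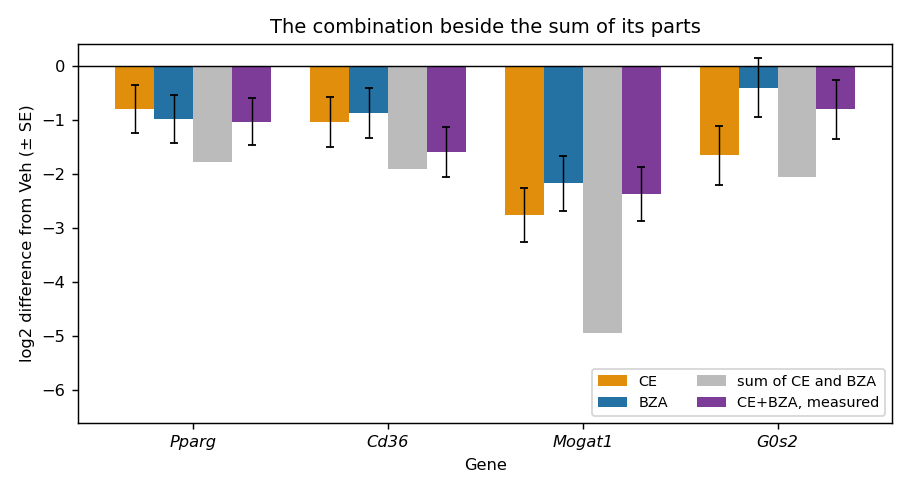
log2 difference from Veh (vertical axis) for each gene (horizontal axis) in CE, in BZA, for the sum of those 2 differences and as measured in CE+BZA, with bars ± SE by limma (none for the sum). For Mogat1 the sum is −4.94 and the measured combination −2.37.

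Among the 12 treated mice no relation between the 4 genes passed a test. The 6 pairwise Pearson correlations lay between −0.27 and 0.21, with permutation p adjusted over the 6 relations of 0.987 for each. With the 2 mice farthest from the median of the first gene of a pair left out, r lay between −0.63, for Mogat1 and G0s2, and 0.388, for Cd36 and Mogat1. Spearman's rho lay between −0.27 and 0.12, with an adjusted permutation p of 1 for each. Over the levels of all 15 mice, r was 0.759 for Cd36 and Mogat1 (adjusted permutation p 0.00696). It was 0.684 for Pparg and Cd36 and 0.668 for Pparg and Mogat1 (adjusted permutation p 0.0142 for each). For the pairs with G0s2, r was 0.191 to 0.507 (adjusted permutation p 0.0815 to 0.495). Spearman's rho was 0.182 to 0.546 over all pairs (adjusted permutation p 0.226 to 0.52). Veh and treated mice form separate clusters of Mogat1, so these values include the group difference and do not show a relation within groups. With the group means subtracted, Cd36 and G0s2 had a negative correlation, with r = −0.694 (permutation p 0.018, adjusted 0.108) and rho = −0.704 (permutation p 0.0143, adjusted 0.0856) over 15 mice. Without the 2 mice farthest from the median of Cd36, r was −0.539, and without BZA mouse 3 it was −0.767. Among the Veh mice, mouse 7 had the highest Cd36 and the lowest G0s2, and mouse 4 the reverse, whereas CE mouse 3 had the highest value of its group for both genes. The relation failed the adjustment, and the other 5 relations had adjusted p of 0.809 to 0.893.

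The genes whose values over the 15 mice were most like those of each of the 4 genes were ranked by Pearson's r among 1499 others with at most 1 mouse at the lowest value. These r values are descriptions, since the 15 points share the same libraries and groups, and they include the separation of Veh from treated mice. Among those nearest to Pparg were Anxa2 (r = 0.83), which encodes a membrane-binding annexin, and Gpr183 (0.81), a receptor of oxysterols in immune cells. Nearest to Cd36 were Tmem56 (r = 0.95), Sult2a4 (0.89), a sulfotransferase with close paralogs, and Ttpa (0.86), the vitamin E transfer protein of liver. Nearest to Mogat1 were the water channel gene Aqp4 (r = 0.85), the glutathione transferase gene Gsta1 (0.85), which has close paralogs, and the nucleoside transporter gene Slc28a1 (0.84). With the group means subtracted, r with Mogat1 was 0.22 for Aqp4, 0.53 for Gsta1 and 0.43 for Slc28a1. Nearest to G0s2 were Alpl (r = 0.76), a phosphatase, 4930412M03Rik (0.76) and Chek1 (0.75), a cell cycle checkpoint kinase. None of the 4 genes was among the 3 nearest of another. Pparg was in place 47 of the list for Cd36 and place 56 of that for Mogat1.

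Other genes of the pathway were taken from lists of known function, of which the table holds only some, since it is a selection. Except for Mogat1 in CE, no gene of these lists was called in any single treatment against Veh. Of 31 genes of fatty acid uptake and activation, 5 were in the table, and their median log2 fold changes were −0.20 (E2), −0.78 (CE), −0.74 (BZA) and −1.02 (CE+BZA). Besides Cd36, Vldlr, a receptor for triglyceride-rich lipoproteins, had log2 fold changes of −1.04, −1.57, −0.36 and −1.02 in E2, CE, BZA and CE+BZA. Fabp2, a fatty acid binding protein gene, had −0.20, −0.78, −1.19 and −1.39. Fabp5, another fatty acid binding protein gene, was named after its values were seen. It differed in sign from Cd36 in E2, CE and CE+BZA. Its log2 fold changes were 2.59, 1.37, −0.74 and 0.24 in E2, CE, BZA and CE+BZA (FDR 0.107, 0.261, 0.453 and 0.858 by limma). Between treatments, Fabp5 was called lower in BZA than in E2, by −3.33 on the log2 scale (SE 0.63, FDR 0.0257 by limma). This call was lost without Veh mouse 7, E2 mouse 3, E2 mouse 5, BZA mouse 3 or BZA mouse 1, with −2.92 and an FDR of 0.239 by limma without BZA mouse 3.

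Of 24 genes of triglyceride synthesis, 4 were in the table, with medians of −0.73 (E2), −0.55 (CE), 0.75 (BZA) and −0.46 (CE+BZA). Mogat2, among them and named after its values were seen, had log2 fold changes of −0.58 (E2), −0.23 (CE), 1.435 (BZA) and 0.34 (CE+BZA). Its sign was opposite to that of Mogat1 in BZA (FDR 0.309 by limma) and in CE+BZA. Lpin1, the phosphatidate phosphatase that makes diacylglycerol by the other route, had log2 fold changes opposite in sign to Mogat1, of 1.38 (E2), 1.16 (CE), 1.67 (BZA) and 2.32 (CE+BZA), the last with an FDR of 0.116 by limma. Aqp7, a glycerol channel gene, had −0.88, −0.88, 0.06 and −1.25, with 8 mice at its lowest value. It was at 2.09 in BZA mouse 3, and at 0.89 and 0.97 in BZA mice 1 and 4.

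Of 26 genes of the droplet coat and lipolysis, 7 were in the table, with medians of −0.24 (E2), −1.07 (CE), −0.49 (BZA) and −0.14 (CE+BZA). Plin1 and Cidea, which enter these medians, were at 5.11 and 3.35 in BZA mouse 3. Each was at 0.89 in BZA mouse 1 and at 0 in BZA mouse 4. Plin4, a droplet coat protein gene, had −2.42 in E2 and −1.96 in CE (limma FDR 0.107 and 0.181), and −0.84 and −0.14 in BZA and CE+BZA. Fitm1, whose product helps droplets form, had −1.44, −1.07, −0.88 and −0.95 in E2, CE, BZA and CE+BZA.

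Fatty acid synthesis, the other supply of lipid, was represented by 4 of 26 genes, with medians of 0.75 (E2), −0.85 (CE), −0.18 (BZA) and 0.18 (CE+BZA). Fasn, the fatty acid synthase, had log2 fold changes of 1.06, −0.65, 0.29 and 0.93, and Acly, which makes cytosolic acetyl-CoA, had 1.25, −0.06, 0.15 and 0.53. Elovl3, a fatty acid elongase gene, had −0.95, −1.05, −1.35 and −1.50. The signs of Fasn and Acly in E2 were thus opposite to those of the 4 genes, whereas Elovl3 had the same sign.

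Among 27 genes for PPARs, their RXR partners and coregulators, 4 were in the table, with medians of 0.19 (E2), 0.31 (CE), 0.57 (BZA) and 1.21 (CE+BZA), Pparg included. Cebpb and Cebpd, factors that come before Pparg in fat cell differentiation, had positive log2 fold changes, of 1.34 and 1.08 in CE+BZA (FDR 0.225 and 0.240 by limma), where Pparg was at −1.03. Of 23 known PPAR-gamma targets, Cd36, Mogat1 and G0s2 included, 11 were in the table, and their medians were −0.43 (E2), −0.88 (CE), −0.41 (BZA) and −0.14 (CE+BZA). Below 0 were 6 of the 11 in each of the 4 treatments. Among the 11, Adipoq, Plin1 and Cidea were at 5.52, 5.11 and 3.35 in BZA mouse 3. Each was at 0.89 in BZA mouse 1 and at 0 in BZA mouse 4. Pck1, which encodes the enzyme of gluconeogenesis and glyceroneogenesis PEPCK, had positive log2 fold changes of 0.52, 1.14, 1.29 and 1.98 in E2, CE, BZA and CE+BZA. Of 13 genes of lipoprotein export only Tm6sf2 was in the table, with log2 fold changes of 0.45 to 1.01.

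**Figure D4:**
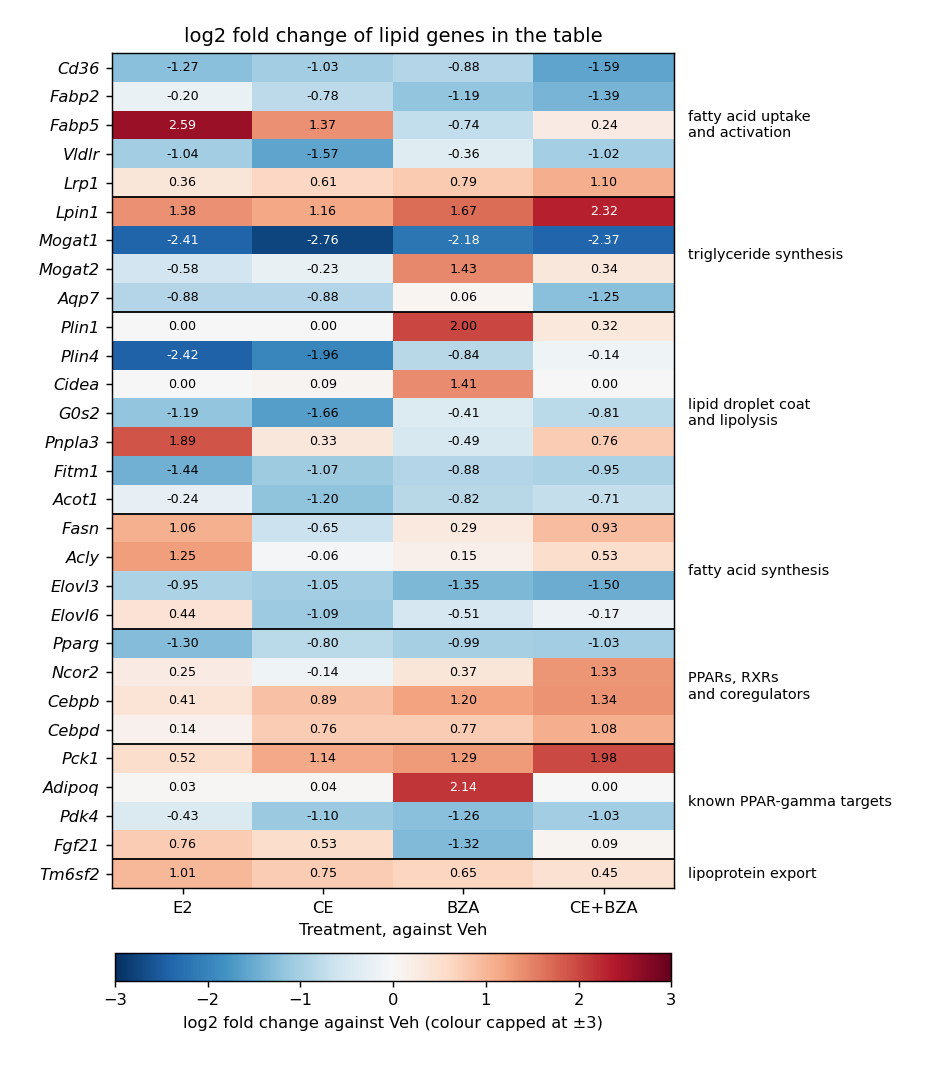
log2 fold change against Veh (colour and printed value) of the genes of the 7 lipid lists that are in the table (vertical axis) in each treatment (horizontal axis), each gene shown in the first list that holds it. Mogat1 is at −2.41, −2.76, −2.18 and −2.37 and Lpin1 at 1.38, 1.16, 1.67 and 2.32.

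Fat cells express Pparg, Cd36 and G0s2 strongly, so other markers of fat cells were compared with the 4 genes in every mouse. The mean log2 value of the 10 adipocyte markers in the table, of 17 listed, was 0.20 to 0.59 in Veh, −0.46 to −0.04 in E2, −0.27 to 0.15 in CE, −0.13 to 0.23 in CE+BZA, and −0.25 to 0.25 in BZA mice 1 and 4. It was 3.49 in BZA mouse 3. Of 12 exocrine pancreas markers 11 were in the table, with a mean of 5.96 in BZA mouse 3 and −0.10 to 0.42 in the other 14 mice. The 0.42 was that of BZA mouse 1, with Ctrb1 at 4.64 and 9 of the 11 at their lowest value. In BZA mouse 1 the adipocyte marker Retn was at 1.47, and Adipoq, Plin1 and Cidea were at 0.89 each. In BZA mouse 3, Pparg, Cd36 and Mogat1 were at 0.17, −0.25 and −0.19, all below the lowest Veh mouse. G0s2 was at 0.36 there, above the lowest Veh mouse at 0.00. Cfd, the adipocyte marker that encodes adipsin, fell by 5.62 on the log2 scale in E2 (limma FDR 0.0388), and its other log2 fold changes were −5.16, −2.78 and −4.28 in CE, BZA and CE+BZA. Cfd was at 3.15, 4.89 and 4.55 in Veh mice 7, 1 and 4, in which 5, 7 and 5 of the 10 markers were at their lowest value. Adipoq, Lep, Plin1 and Cidea were at 0 in every Veh mouse and at 3.35 to 5.52 in BZA mouse 3. The marker mean in Veh thus rested largely on Cfd and is a weak measure of fat cell content. Car3 had −1.06, −1.81, −0.85 and −1.26, and Adrb3 −0.26, 1.14, 0.74 and 0.90. Cfd and Car3 thus had negative log2 fold changes in all 4 treatments, as the 4 genes did, and the part of adipocyte RNA in the result was not tested. Over the 10 adipocyte markers, log2 fold changes were below 0 for 4 in E2 and for 3 each in CE, BZA and CE+BZA. Without BZA mouse 3, the log2 fold changes in BZA against Veh were −1.14 for Pparg, −0.65 for Cd36, −2.07 for Mogat1 and −0.43 for G0s2 (FDR 0.276, 0.403, 0.254 and 0.698 by limma).

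**Figure D5:**
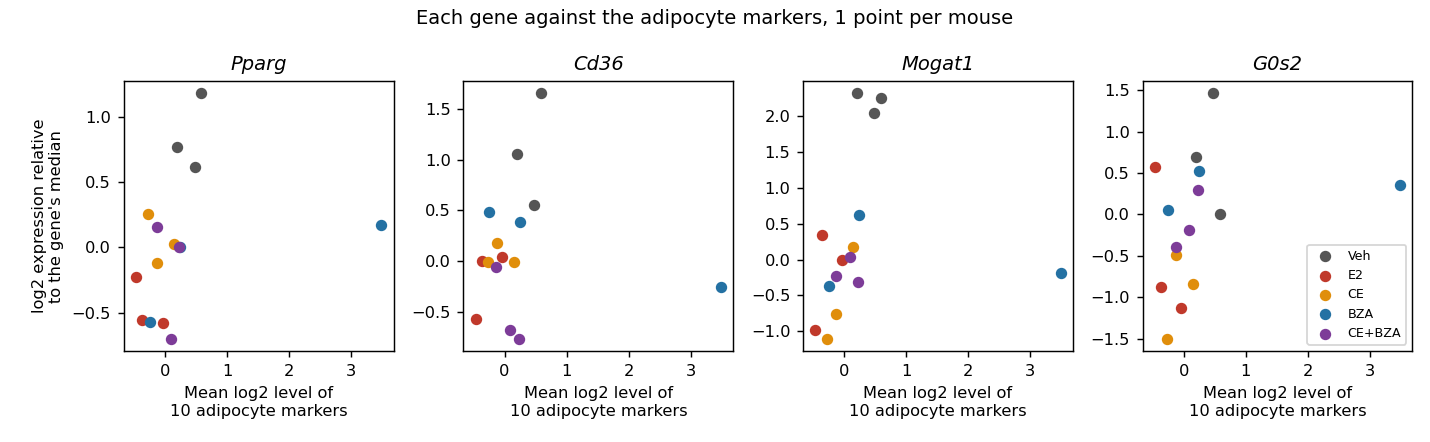
Deposited log2 expression of each of the 4 genes (vertical axis) against the mean log2 value of 10 adipocyte markers (horizontal axis), with 1 point per mouse and colours for the 5 groups. BZA mouse 3 is at 3.49 on the horizontal axis and the other 14 mice between −0.46 and 0.59. In the Veh mice the marker mean rests largely on Cfd.

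Markers of other cells were sparse in the table. Of 19 macrophage markers 4 were present, and their mean log2 value was −0.18 to 0.76 in Veh and −1.17 to 1.37 over the 14 mice other than BZA mouse 3. Marco had log2 fold changes of −0.21, 1.91, 0.43 and 0.75 in E2, CE, BZA and CE+BZA, Ccr2 −0.74, −0.16, −1.15 and −1.30, and Gpnmb −0.78, −1.47, 0.91 and −2.23. Of 11 stellate and fibroblast markers 2 were present, with mean log2 values of −0.30 to 0.18 in Veh. Erythroid markers, 6 of 9, had mean log2 values of −1.50 to 0.20 in Veh and −0.06 to 1.71 in CE. Endothelial markers were not represented (0 of 10), and of 10 hepatocyte markers only Tat was, so the liver label could not be checked against hepatocyte markers in this table.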

How the data were processed

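Livers of 15 mice in 5 groups of 3 were analysed. The authors trimmed the reads (FASTQ Trimmer), mapped them to the mouse genome with TopHat, quantified genes in StrandNGS and applied the DESeq normalization. The submitters' processing notes name mm10 and hg19 with no roles. The authors deposited log2 values relative to the median of each gene. Columns were matched to mice by their names (0 unmatched). limma 3.58.1 in R 4.3.3 was fitted to all 15 mice with 5 groups and no covariate, and permutation tests used Python 3.11.15 and scipy 1.17.1. The limma step was tested on simulated data.

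Members and lists were chosen with earlier results of these data known. Named genes were the members, genes of each list called against Veh, the 3 genes of each list with the largest mean change over the 4 treatments, and the 3 genes most like each member; of the marker lists, those of adipocytes and macrophages are printed by gene. Not every gene meeting it is reported here. Alternatives were quantile normalization, centring of each mouse, leaving out genes with 2 or more mice at the lowest value, a mean-variance trend, no shrinkage, a replicate block, only the groups compared, other thresholds, and leaving out each mouse. The limma p-values set a difference against the spread between the mice of a group. The permutation p-values of treated against Veh mice, and of correlations between levels, come from shuffling mice across groups. Promoter sequence was taken from RefSeq, and all 4 genes matched by symbol. The first RefSeq start of Pparg is not shown, because its window overlaps annotated exons. Plasma metabolites, histology and qPCR were not analysed here.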

Additional observations from a re-analysis of the deposited data

Results flagged for a closer look

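Genes were flagged if all mice of a treatment were above the Veh mean and all mice of another below it, or by an FDR under 0.05. The share of all genes meeting this rule is not given here, so the side of the Veh mean is a description. Fasn, the fatty acid synthase, was lower in CE than in E2, with a log2 difference of −1.71 (SE 0.66, FDR 0.468 by limma). All 3 E2 mice were above the Veh mean, while all 3 CE mice were below it. The same held between CE+BZA and CE, with a difference of 1.58 (SE 0.66, FDR 0.293 by limma). Neither difference passed the adjusted test, and Fasn ranged from −2.21 to 1.10 among the 3 Veh mice. CE mouse 3, at −0.70, was close to the Veh mean of −0.63.

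Fabp5, a fatty acid binding protein gene, was higher in E2 than in BZA, with a BZA minus E2 difference of −3.33 on the log2 scale (SE 0.63, FDR 0.0257 by limma), and all 3 E2 mice were above the Veh mean while all 3 BZA mice were below it. BZA and CE stood in the same order, with a BZA minus CE difference of −2.11 (FDR 0.286 by limma) that did not pass. Without BZA mouse 3, BZA minus E2 was −2.92 (FDR 0.239 by limma), and without shrinkage or with the replicate block the FDR was 0.113 and 0.350.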

How the results depend on the processing

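The 4 genes kept their sign against Veh in each of the 4 treatments under every other normalization, gene filter, model or choice of mice run, and Pparg, Cd36 and G0s2 stayed uncalled there at an FDR under 0.05. With an unadjusted p in its place, the members that passed are those given by treatment in the report. Mogat1 in E2 passed the threshold with quantile normalization (−2.62), with genes often at their lowest value left out (−2.41) and without shrinkage (−2.41), with FDR of 0.0275, 0.0253 and 0.0412 by limma or, for the last, an ordinary linear model. Mogat1 in CE+BZA passed with quantile normalization (−2.77), and at −2.37 with those genes left out, without shrinkage and with only the 2 groups compared (FDR 0.0127, 0.0225, 0.0338 and 0.0453). Mogat1 in CE did not pass with only the 2 groups compared (−2.76, FDR 0.143).

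Replicate numbers recur between groups but mark different mice. Deviations of the 13 same-number pairs had a median r of −0.02 (−0.05 to 0.10). With the number as a replicate block, which leaves 4 residual degrees of freedom, Mogat1 had −2.18 in CE (FDR 0.328) and −2.05 over the 4 treatments (FDR 0.473), both uncalled, Pparg had −0.0706 for CE+BZA against E2 and 0.26 for BZA against CE, both with the sign turned, and 0 genes were called in E2, CE, CE+BZA or the 4 treatments. Quantile normalization turned Mogat1 for CE+BZA against E2 (−0.15). It moved the median of all genes by −0.13, −0.12 and −0.14 for CE, BZA and CE+BZA against E2. Pearson's r over the 12 treated mice was 0.0452 for Pparg and G0s2 and 0.108 for Mogat1 and G0s2. As deviations from group means over 15 mice it turned sign for these pairs, to −0.037 and −0.286, and to −0.0512 and −0.285 without BZA mouse 3 as well. Among treated mice without BZA mouse 3, r was −0.0581 for Pparg and G0s2. The cause of these changes was not tested.

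Genes called numbered 5 in E2, 4 in CE, 0 in BZA, 3 in CE+BZA and 6 over the 4 treatments. In E2 they were 10 with quantile normalization, 18 with genes often at the lowest value left out, 9 without shrinkage, 0 with only the 2 groups and 385 by unadjusted p; in CE 10, 8, 13, 0 and 473. In BZA they were 1 without shrinkage, 2 with only the 2 groups and 417 by unadjusted p. In CE+BZA they were 15, 14 and 13 in the first 3 of these settings, 7 with centring, 6 with a mean-variance trend and 537 by unadjusted p, and over the 4 treatments 11, 26, 10, 10 with centring and 367.

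Leaving out each mouse in turn gave 1 to 6 called genes in E2, 0 to 7 in CE, 0 to 4 in BZA, 0 to 10 in CE+BZA and 0 to 16 over the 4 treatments. Mogat1 ranged from −2.69 to −2.03 in E2, −3.13 to −2.49 in CE, −2.48 to −2.30 in CE+BZA and −2.52 to −2.34 over the 4 treatments, and passed in E2 without BZA mouse 1 and in CE+BZA without E2 mouse 3. The treated minus Veh difference of G0s2 ranged from −1.38 to −0.64. Some differences between treatments changed sign. Pparg ranged from −0.34 to 0.0304 for BZA against CE, −0.41 to 0.0245 for CE+BZA against CE and −0.27 to 0.21 for CE+BZA against BZA. Mogat1 ranged from −0.15 to 0.51 for BZA against E2, −0.35 to 0.31 for CE+BZA against E2 and −0.39 to 0.10 for CE+BZA against BZA, and G0s2 from −0.79 to 0.0594 for CE against E2.

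With 3 mice per group the confidence intervals of single differences were about 2 log2 units wide, depth is unknown, and the table holds only genes selected for a difference from Veh.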
